A study of Mus musculus with 23 samples.

Results

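The genes described here encode the subunits of the mitochondrial respiratory chain and ATP synthase in sorted mouse lung tumor cells. Members were chosen by symbol in 2 tables of normalized counts: the Nduf, Sdh, Uqcr, Cyc1, Cox4 to Cox8 and Atp5 symbols of the nuclear genome and the mt-Nd, mt-Co, mt-Cytb and mt-Atp symbols of the mitochondrial genome, without pseudogene symbols (7 such symbols were left out), at a mean of at least 10 normalized counts. Of 95 symbols that matched, 90 passed in the table of BRAFV600E and BRAFV600E/PI3KαH1047R tumors, out of 35455 genes, and 89 in the PGC1α table, out of 35454. These were 37 nuclear and 7 mitochondrial genes of complex I, 4 nuclear genes of complex II, 9 and 1 of complex III, 11 and 3 of complex IV, and 16 and 2 of complex V. Ndufa4l2 passed only in the first table, and Cox6a2, Cox7a1, Cox7b2, Cox8b and Cox8c, isoforms best known from muscle or testis, were below 10 in both. The pattern did not reach Cox4i1 and Ndufab1, which are subunits by function, and it took in Atp5s and Cox7a2l, which are not structural subunits of the complex in which they are counted. By its symbol Ndufa4 is counted in complex I with its paralog Ndufa4l2, although Ndufa4 is known as a subunit of complex IV. Counting both in complex IV left the pooled PI3KαH1047R medians described below at -0.09 for complex I and 0.03 for complex IV. At 6 weeks it moved the nuclear median of complex IV from -0.11 to -0.28 and that of complex I from -0.16 to -0.14.

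The 23 libraries came from tdTomato+ cells sorted from lung tumors of mice on a mixed C57BL/6, 129 and FVB background. All mice carried 1 Braf CAT allele, which upon CRE expresses BRAFV600E together with tdTomato from the gene's own promoter, and tumors were started in the adult lung with an adenovirus whose CRE is driven by the Sftpc promoter, so that recombination is restricted to cells that use this promoter, the alveolar type 2 (AT2) pneumocytes. The BRAFV600E group (CAT/+) had 6 libraries, with 1 at 2 weeks, 3 at 6 weeks and 2 at 12 weeks post initiation (p.i.). The BRAFV600E/PI3KαH1047R group (CAT/+; HR/+) also carried 1 Pik3ca lat-H1047R allele and had 8 libraries, with 2, 4 and 2 at these weeks. At 12 weeks p.i., 5 BRAFV600E/PGC1αHet libraries with 1 floxed Ppargc1a allele were set against 4 BRAFV600E/PGC1αNull libraries with both alleles floxed, so that the controls of this comparison had themselves lost 1 copy of the gene after CRE. Mice analyzed at 12 weeks received less virus than those at 2 and 6 weeks, so that week and viral dose cannot be told apart.

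The first table summed to 16433820 to 20287296 normalized counts per library and the second to 7115753 to 9159567. The tables were normalized separately and are compared only within themselves. AT2 marker genes were present in every library, and 0 of the 12 were at 0 in all libraries of any group. In the first table the summed AT2 markers ran from 565761 to 1599980 in BRAFV600E libraries and from 82642 to 1152730 in BRAFV600E/PI3KαH1047R libraries, and 12 endothelial markers summed to 13459 to 112292 and 21389 to 217168. Fewer cells of a type and less RNA per cell cannot be told apart in such bulk samples. At 12 weeks the Y-linked genes went against the sex labels of both BRAFV600E/PI3KαH1047R libraries: Kdm5d was at 502 in the library labelled male and at 4728 in that labelled female. The pooled comparison and the steps between weeks are given below with and without these 2 libraries, and the comparison at 12 weeks and the change of the PI3KαH1047R effect between 6 and 12 weeks cannot be made without them. The single BRAFV600E library at 2 weeks stood apart from the other 13 in its mitochondrial transcripts, as described below.

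Complex I (NADH dehydrogenase) and complex II (succinate dehydrogenase) pass electrons to ubiquinone, complex III hands them to cytochrome c, complex IV reduces oxygen, and complex V makes ATP from the proton gradient built by complexes I, III and IV. Complex II is encoded in the nucleus alone, whereas the other complexes also hold subunits that are transcribed and translated inside the mitochondrion. AT2 cells, which make and recycle surfactant, are rich in mitochondria. PGC1α, the product of Ppargc1a, is a co-activator known to act with NRF1, GABP and the estrogen related receptors on nuclear genes of the chain.

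The 13 mitochondrial members lie close together on chromosome M (GRCm38), from mt-Nd1 (chrM:2751-3707) to mt-Cytb (chrM:14145-15288). Of these, mt-Nd6 (chrM:13552-14070) lies on the minus strand. The genes mt-Atp8 and mt-Atp6 share 43 bases and mt-Nd4l and mt-Nd4 share 7, while mt-Atp6 and mt-Co3 share 1 base (chrM:8607). On opposite strands mt-Nd5 and mt-Nd6 overlap by 14 bases (chrM:13552-13565). This stretch is shorter than a read, so a read that touches it also holds bases outside it. Whether reads were counted by strand is not given in the sources used here. How far the overlaps limit these pairs as separate measurements was not tested. The 2 longer stretches shared on 1 strand are shown, with the bases from the start codon of the second gene to the stop codon of the first:
mt-Atp8 and mt-Atp6, chrM:7927-7969, plus strand: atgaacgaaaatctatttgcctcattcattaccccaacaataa
mt-Nd4l and mt-Nd4, chrM:10167-10173, plus strand: atgctaa

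Copies of mitochondrial DNA in the nuclear genome compete for the reads of these genes. Of the 31-base stretches in the transcripts of mt-Co2, mt-Co3, mt-Atp6, mt-Nd4l and mt-Nd3, 98.1% to 100% also occur in other annotated transcripts, against 63.9% for mt-Co1 and 62.8% for mt-Nd4. In the first table such copies held 79.7% of the summed value of mt-Atp6 and its copy, 62.3% for mt-Co2 and 36.0% for mt-Co3. Values of these genes thus depend on how the reads were divided. Summing each gene with its copies moved the pooled log2 difference from -0.47 to -0.41 for mt-Atp6, from -0.34 to -0.52 for mt-Co3 and from -0.62 to -0.42 for mt-Nd3, without changing its direction. Among nuclear members, Atp5o (49.3%), Atp5g2 (40.2%), Uqcrb (34.8%) and Ndufb6 (34.4%) shared the most with other genes, so their values are less certain.

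Promoters are shown for the 3 members that had a limma p under 0.05 in the pooled PI3KαH1047R comparison and a single RefSeq promoter window with a motif match, and for Ndufb4, the 1 member whose PGC1αHet and PGC1αNull libraries did not overlap. Each window runs from 250 bases before to 50 bases after the RefSeq gene start (GRCm38.p6), and all 4 lie on the minus strand and are written 5′ to 3′ along it. Capitals mark the letters that matched a motif on either strand: GCGCANGCG (NRF1-type), CCGGAAG (ETS-type, read as CTTCCGG on the other strand), AAGGTCA (estrogen related receptor type) or AAGATGGC (YY1-type).
Atp5g2, chr15:102670998-102671297: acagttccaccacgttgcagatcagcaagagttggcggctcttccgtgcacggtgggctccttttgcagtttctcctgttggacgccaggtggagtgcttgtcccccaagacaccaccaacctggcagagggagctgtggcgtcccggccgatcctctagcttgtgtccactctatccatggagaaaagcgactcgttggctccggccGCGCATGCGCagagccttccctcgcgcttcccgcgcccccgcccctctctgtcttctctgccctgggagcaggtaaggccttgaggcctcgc
Cox8a, chr19:7217567-7217866: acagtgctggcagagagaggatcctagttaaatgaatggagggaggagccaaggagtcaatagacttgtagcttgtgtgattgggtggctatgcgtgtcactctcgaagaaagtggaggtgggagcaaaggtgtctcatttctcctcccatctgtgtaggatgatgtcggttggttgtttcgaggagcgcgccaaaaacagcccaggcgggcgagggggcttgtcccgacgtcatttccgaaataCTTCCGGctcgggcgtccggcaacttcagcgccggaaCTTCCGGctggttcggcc
Uqcrh, chr4:116075021-116075320: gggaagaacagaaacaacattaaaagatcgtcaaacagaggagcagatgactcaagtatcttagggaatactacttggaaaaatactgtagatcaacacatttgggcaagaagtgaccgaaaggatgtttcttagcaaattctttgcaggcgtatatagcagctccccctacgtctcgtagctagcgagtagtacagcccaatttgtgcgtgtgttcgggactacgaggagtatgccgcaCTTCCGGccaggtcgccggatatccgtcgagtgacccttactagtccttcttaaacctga
Ndufb4, chr16:37654319-37654618: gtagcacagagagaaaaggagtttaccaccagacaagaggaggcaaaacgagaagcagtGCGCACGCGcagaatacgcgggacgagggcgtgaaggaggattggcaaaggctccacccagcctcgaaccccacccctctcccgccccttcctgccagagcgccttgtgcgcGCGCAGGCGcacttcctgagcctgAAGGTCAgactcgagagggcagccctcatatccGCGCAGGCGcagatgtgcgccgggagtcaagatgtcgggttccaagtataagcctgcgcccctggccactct

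The Atp5g2 window held 1 palindromic stretch that matched the NRF1-type motif on both strands, Cox8a held 2 ETS-type matches and Uqcrh 1, and Ndufb4 held 3 NRF1-type matches and 1 estrogen related receptor type match. Of the 77 nuclear members 65 had a RefSeq promoter, and 39 of these held at least 1 of the 4 motifs, against 26.7% of 17491 genes with a promoter. The NRF1-type motif was in 20 of 65 (30.8%, against 9.63% of all genes), the ETS-type in 16 (24.6% against 12.9%), the YY1-type in 10 (15.4% against 3.57%) and the estrogen related receptor type in 8 (12.3% against 4.73%). By complex, NRF1-type letters were in 8 of 32 promoters of complex I, 2 of 3 of complex II, 2 of 5 of complex III, 1 of 10 of complex IV and 7 of 15 of complex V. These are matches of letters, and binding was not measured.

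The mitochondrial members were by far the more abundant. In the first table the 13 mitochondrial genes held 2.95% to 11.5% of all normalized counts of a library, and the 77 nuclear members 0.270% to 0.389%. On a scale of mean normalized counts per kb of transcript, the mitochondrial members had a median of 37465 and the nuclear members of 314. The top level was that of mt-Co1, the catalytic subunit of complex IV (235555 per kb), followed by mt-Cytb of complex III (130989) and mt-Nd1 of complex I (114257). These levels leave out the nuclear copies. For mt-Atp6 the copy had a mean of 65650 counts against 16695 of its own, so its place in this order depends on how the reads were divided. Atp5b, the catalytic beta subunit of ATP synthase, was the highest nuclear member (13832 per kb), at rank 13 of 90. In the PGC1α table Atp5b stood at 4754 per kb and rank 8 of 89, below a mitochondrial maximum of 38345 for mt-Co1. Between libraries of the first table Atp5b and Cyc1, the heme protein of complex III, varied least (SD of log2 values 0.19 and 0.20), and the isoforms Ndufa4l2 and Cox6b2 the most (1.78 and 1.30). The median SD was 0.44 for nuclear and 0.54 for mitochondrial members.

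**Figure D1:**
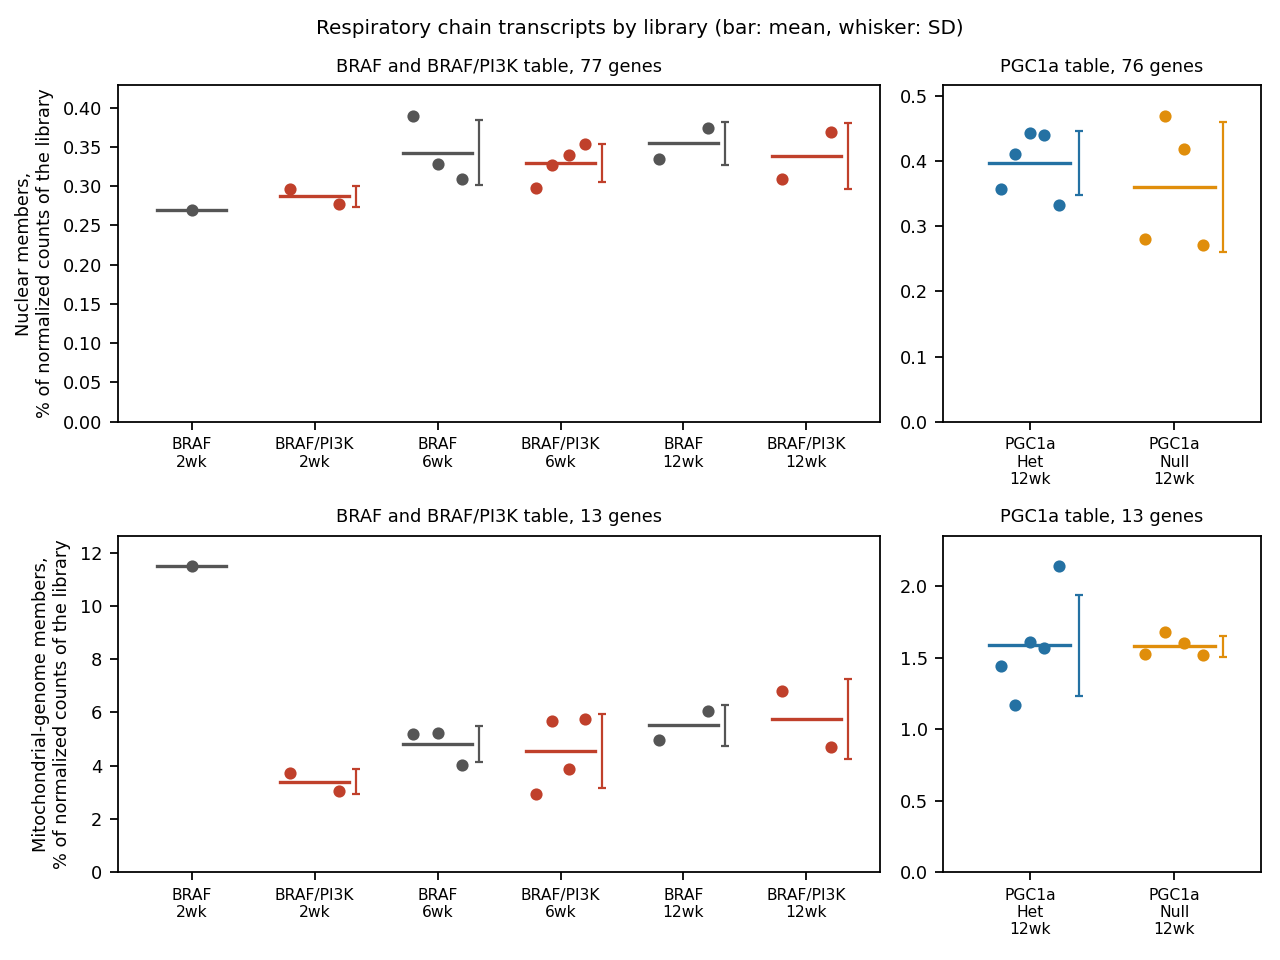
Share of all normalized counts (percent of the library) taken by nuclear members and by mitochondrial members, one point per library, with the group mean as a bar and the SD as a whisker, for the 2 tables, which were normalized separately. The BRAFV600E library at 2 weeks lies at 11.5% for the mitochondrial members, while the other BRAFV600E libraries lie at 4.03% to 6.07%.

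By library the mitochondrial share was 11.5% in the BRAFV600E library at 2 weeks, 4.03% to 5.22% in the 3 at 6 weeks and 4.97% to 6.07% in the 2 at 12 weeks. In BRAFV600E/PI3KαH1047R tumors it was 3.06% and 3.73% at 2 weeks, 2.95% to 5.74% at 6 weeks, and 4.68% and 6.80% at 12 weeks. The genotypes thus overlapped at 6 and at 12 weeks. For the nuclear members the share in BRAFV600E tumors was 0.270% at 2 weeks, 0.310% to 0.389% at 6 weeks, and 0.335% and 0.374% at 12 weeks, and in BRAFV600E/PI3KαH1047R tumors 0.278% and 0.296%, 0.298% to 0.354%, and 0.309% and 0.369%. The ratio of mitochondrial to nuclear counts was 42.5 in the BRAFV600E library at 2 weeks and 9.89 to 22 in the other 13. All 13 mitochondrial members were higher in this 1 library than in any other of the table.

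To ask whether PI3KαH1047R changed the respiratory chain genes of BRAFV600E tumors, the 8 BRAFV600E/PI3KαH1047R libraries were first compared with the 6 BRAFV600E libraries with all weeks together. Most members were lower by a small amount: all 13 mitochondrial members and 49 of 77 nuclear members had a log2 fold change below 0, against 48.2% of all genes tested. The median log2 fold change was -0.46 for mitochondrial members (range -0.62 to -0.24) and -0.13 for nuclear members (range -1.33 to 0.44), against 0.02 for all genes. The mitochondrial median was -0.23 without the BRAFV600E library at 2 weeks and -0.24 without the 3 libraries with the highest endothelial marker sum. The nuclear median was -0.05 without the first BRAFV600E library at 6 weeks, -0.06 without the second at 12 weeks, -0.08 without the 3 endothelial-rich libraries and -0.02 with labelled sex as a factor, closer to the value of all genes. With the sex labels of the 2 BRAFV600E/PI3KαH1047R libraries at 12 weeks exchanged, as their Y-linked genes read, it was -0.05 and the mitochondrial median -0.27. By limma with Benjamini-Hochberg adjustment over 17558 genes, 0 of 90 members passed an adjusted p under 0.05 (0.0228% of all genes), while 8 were lower and 0 higher at an unadjusted p under 0.05, against 3.38% and 3.46% of all genes. The count of lower members was 14 without the 2 BRAFV600E/PI3KαH1047R libraries at 12 weeks, 3 without the 3 libraries richest in endothelial markers, and 2 with sex as a factor, as labelled or with those labels exchanged. It was 4 without the BRAFV600E library at 2 weeks or the first BRAFV600E/PI3KαH1047R library at 2 weeks, 3 without the first BRAFV600E or the third BRAFV600E/PI3KαH1047R library at 6 weeks, 2 without the second BRAFV600E library at 12 weeks and 13 without the third BRAFV600E library at 6 weeks. All 13 mitochondrial members stayed below 0 in each of these fits, and 12 did with quantile normalization. For 0 of 90 members were the 2 genotypes without overlap, against 0.125% of all genes lower and 0.0854% higher without it. Cell type markers also differed between the genotypes. At an unadjusted p under 0.05 in limma, 3 of 12 AT2 markers were lower and 3 of 12 endothelial, 2 of 11 macrophage and 2 of 10 fibroblast markers higher, while 1 of 7 striated muscle, 2 of 6 erythroid and 1 of 9 club and ciliated markers were lower and 0 of 10 lymphocyte markers passed that level. Summed macrophage markers ran from 1907 to 7654 in BRAFV600E and from 3976 to 29593 in BRAFV600E/PI3KαH1047R libraries, fibroblast markers from 3430 to 23827 and from 5208 to 70394, striated muscle markers from 3231 to 17491 and from 470 to 12237, and erythroid markers from 751 to 3926 and from 315 to 2099. The part of these transcripts, of AT2 content and of sex in the difference was not tested.

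Without the 2 BRAFV600E/PI3KαH1047R libraries at 12 weeks the pooled medians were -0.58 for mitochondrial members, with 13 of 13 below 0, and -0.13 for nuclear members, with 53 of 77 below 0. By complex the nuclear medians were -0.11 for complex I, 0.09 for complex II, -0.26 for complex III, -0.08 for complex IV and -0.26 for complex V, so that the median of complex IV turned from above to below 0 (8 of 11 below 0 in place of 5). The 6 members that changed direction, all nuclear and all within 0.10 of 0 in both fits, were Ndufa3, Ndufa12, Ndufv1, Cox6a1, Cox7a2l and Cox7b. Among members described below, Uqcrc2 (-0.58), Uqcrh (-0.54), Cox8a (-0.62), Cox6b2 (-1.45), Atp5g2 (-0.96), Atp5j (-0.38), mt-Nd3 (-0.67) and mt-Cytb (-0.58) were also lower without these libraries, at an unadjusted p under 0.05 in limma. Those that moved by more than 1.5 times without turning included Atp5s (-1.05), Ndufb6 (0.74), Ndufs1 (0.04), Sdha (-0.24), Sdhb (0.25) and Sdhd (0.02).

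**Figure D2:**
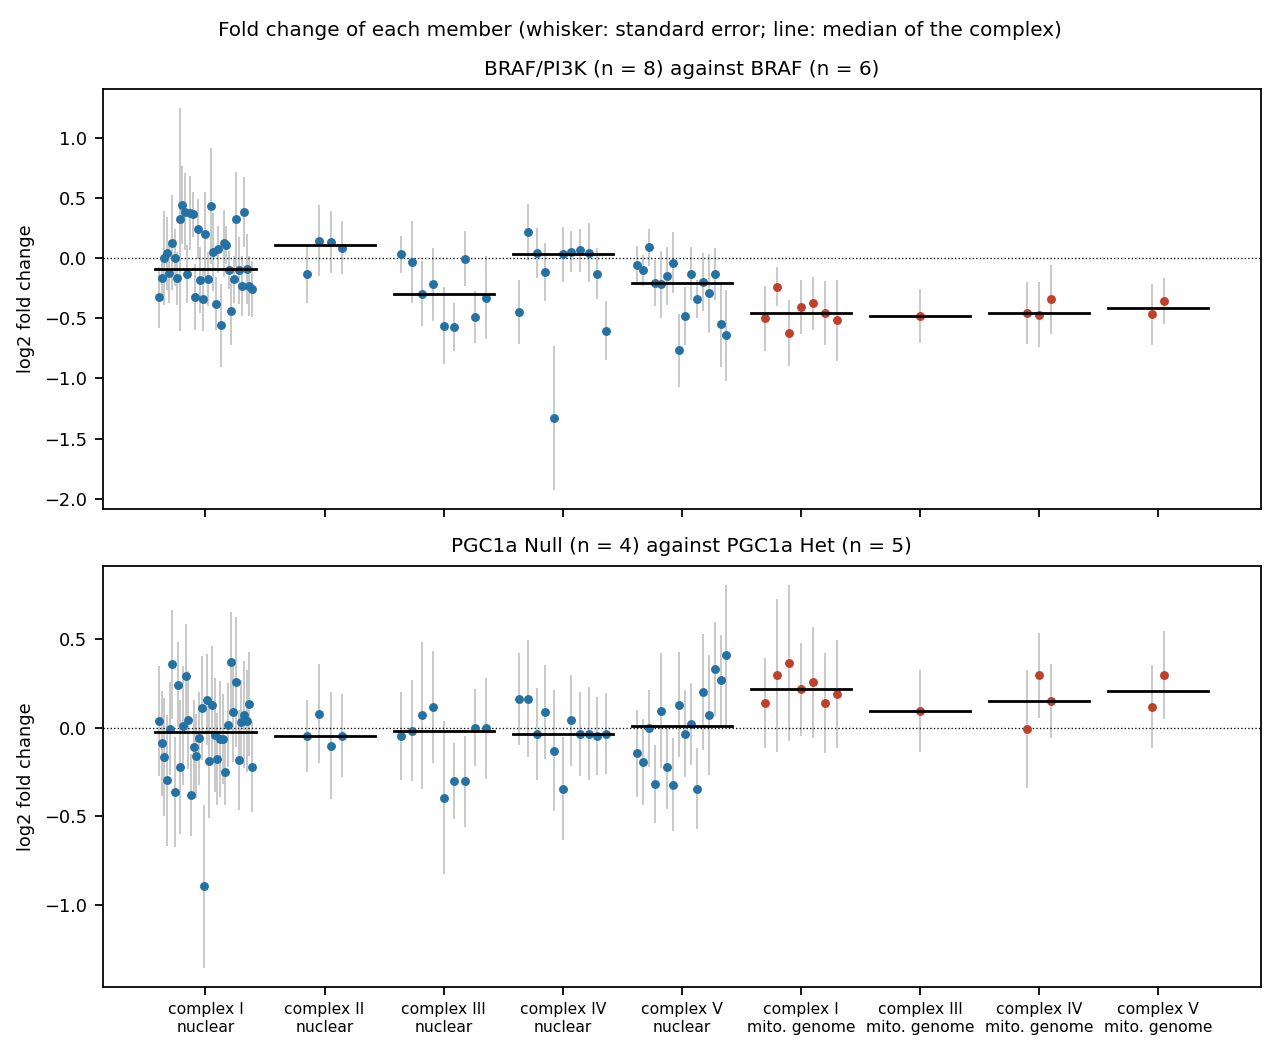
Log2 fold change (on log2 of normalized count + 1) of each member, with its standard error as a bar, by complex and by genome, for BRAFV600E/PI3KαH1047R against BRAFV600E with all weeks together (top) and for BRAFV600E/PGC1αNull against BRAFV600E/PGC1αHet (bottom). In the upper panel the 13 mitochondrial members all lie below 0, between -0.62 and -0.24 (12 of 13 after quantile normalization), and in the lower panel 12 of 13 lie above 0.

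Complex I, the largest complex, had 20 of 37 nuclear members below 0 with a median of -0.09, and 0 of them had an unadjusted p under 0.05 in limma. Of the matrix arm subunits that carry electrons or bind substrate, Ndufs1 differed by 0.11 (SE 0.16) and Ndufv1 by -0.09 (SE 0.29). Ndufs1 ran from 952 to 1547 normalized counts in BRAFV600E libraries and from 962 to 1453 in BRAFV600E/PI3KαH1047R libraries. The highest values of any member were those of the accessory subunits Ndufa5 (0.44, SE 0.32), Ndufb6 (0.43, SE 0.48) and Ndufa6 (0.38, SE 0.32). None of these 3 had an interval clear of 0. With 1 library left out Ndufb6 ran from 0.17 without the second BRAFV600E library at 12 weeks to 0.83 without the first at 6 weeks, and Ndufa6 fell to 0.17 without the first BRAFV600E library at 12 weeks, so their order is not firm. For complex I the nuclear and mitochondrial core genes together, 14 in all, had 12 below 0 and a median of -0.31. This value mixes the genomes, since the 7 mitochondrial genes among them were all below 0, with a median of -0.46.

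Complex II had 1 of 4 members below 0 and a median of 0.11. Its flavoprotein Sdha differed by -0.13 (95% interval -0.65 to 0.38), the iron-sulfur subunit Sdhb by 0.14 (-0.49 to 0.77), and the membrane anchors Sdhc and Sdhd by 0.13 (-0.41 to 0.67) and 0.09 (-0.38 to 0.55). For Sdhb the library values were 191 at 2 weeks, 114, 154 and 145 at 6 weeks and 120 and 161 at 12 weeks in BRAFV600E tumors, against 411 and 154, then 170, 153, 169 and 97.7, then 181 and 90.4 in BRAFV600E/PI3KαH1047R tumors. A single library at 2 weeks was high, the others overlapped, and without that library the difference was -0.05.

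Complex III had 8 of 9 nuclear members below 0 (median -0.30). The lowest p of any member was that of Uqcrc2, a core protein that helps to build the complex. Its values in BRAFV600E tumors were 1003 at 2 weeks, 1326, 949 and 1296 at 6 weeks and 907 and 1641 at 12 weeks, and in BRAFV600E/PI3KαH1047R tumors 434 and 787, then 779, 932, 937 and 924, then 718 and 873. All 8 libraries with PI3KαH1047R lay below the BRAFV600E mean and 5 lay below every BRAFV600E library, although the groups overlapped. The log2 fold change was -0.57 (SE 0.20, 95% interval -1.0 to -0.15, limma adjusted p = 0.565), and a two-sided exact permutation test on this gene alone gave p = 0.00466, unadjusted for the 90 members. Uqcrh, the hinge protein at the cytochrome c contact, was at 330 to 478 in BRAFV600E and at 166 to 392 in BRAFV600E/PI3KαH1047R libraries (log2 fold change -0.49, SE 0.21, limma adjusted p = 0.689). Here again 8 of 8 lay below the BRAFV600E mean and 5 below every BRAFV600E library. The other core protein Uqcrc1 differed by -0.56 (SE 0.32) and by -0.34 without the BRAFV600E library at 2 weeks, at 940 the highest, while the catalytic members Uqcrfs1 (-0.01, SE 0.23) and Cyc1 (0.03, SE 0.15) were close to 0.

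Complex IV nuclear members had a median of 0.03, with 5 of 11 below 0. The 2 lower at an unadjusted p under 0.05 were Cox8a and Cox6b2. Cox8a, the ubiquitous form of a small structural subunit, was at 147 at 2 weeks, 226, 177 and 271 at 6 weeks and 131 and 225 at 12 weeks in BRAFV600E tumors, against 85.3 and 118, then 138, 206, 92.1 and 134, then 109 and 150 with PI3KαH1047R (log2 fold change -0.61, SE 0.25, limma adjusted p = 0.672). Of these 8 libraries 4 lay below every control. Cox6b2, the form of subunit VIb known from testis, was scarce at 11.2 to 158 in BRAFV600E libraries and 5.55 to 72.5 in BRAFV600E/PI3KαH1047R libraries, and had the lowest log2 fold change of any member (-1.33, SE 0.60, limma adjusted p = 0.711). Its ubiquitous partner Cox6b1 was at 167 to 422 and 142 to 312 (-0.12, SE 0.24), and the other ubiquitous partners Cox6a1 (0.04), Cox7a2 (0.05) and Cox7b (0.04) were near 0. Cox5b, a subunit on the matrix side, was at 0.21 (SE 0.23), and Cox5a at -0.45 (SE 0.27). Without 1 library these became 0.09 (Cox5b, without the third BRAFV600E library at 6 weeks) and -0.27 (Cox5a, without the first).

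Complex V had 15 of 16 nuclear members below 0, with a median of -0.20. The 3 genes for the c subunit of the proton-driven ring, which encode one mature protein, gave unlike values. Atp5g2 was at 206 at 2 weeks, 225, 213 and 145 at 6 weeks and 138 and 343 at 12 weeks in BRAFV600E tumors, and at 109 and 129, then 89.7, 134, 53.2 and 139, then 220 and 139 with PI3KαH1047R. It differed by -0.77 (SE 0.30, limma adjusted p = 0.657), Atp5g3 by -0.48 (SE 0.24) and Atp5g1 by -0.04 (SE 0.25). The differences between these 3 genes were not tested. Atp5j, the coupling factor of the stalk, was at 1033 to 1698 and at 850 to 1416 (-0.34, SE 0.16), with 6 of 8 libraries below every control. The catalytic pair Atp5a1 (-0.06, SE 0.16) and Atp5b (-0.10, 95% interval -0.37 to 0.17) were close to 0. Atp5s, known as coupling factor B, was the member with the third lowest value (-0.64).

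Among mitochondrial members mt-Nd3 and mt-Cytb had an unadjusted p under 0.05. The complex I core gene mt-Nd3 was at 482 in the BRAFV600E library at 2 weeks, 219, 170 and 150 at 6 weeks and 231 and 154 at 12 weeks, against 149 and 148, then 168, 146, 115 and 93.9, then 195 and 120 with PI3KαH1047R. It differed by -0.62 (SE 0.27, limma adjusted p = 0.689), with 6 of 8 libraries below every control. For mt-Cytb, the 1 complex III gene of the mitochondrial genome, the values were 329648, then 164592, 162986 and 111453, then 141288 and 181127, against 90734 and 95967, then 105706, 160503, 98444 and 155036, then 163544 and 136891. It differed by -0.48 (SE 0.23, limma adjusted p = 0.726). Without the BRAFV600E library at 2 weeks mt-Nd3 was at -0.39, mt-Cytb at -0.30 and mt-Co1 at -0.23, and mt-Cytb was at -0.32 with labelled sex as a factor. The abundant mt-Co1 differed by -0.46 (95% interval -1.01 to 0.09), and was at 0.18 when the log2 values were quantile normalized, where mt-Cytb was at -0.10. That scaling gives each rank 1 value in every library, and mt-Co1 ranked between 1 and 3 and mt-Cytb between 3 and 8 of 17558 genes in each library, so it limits how far either can differ and says little of their direction. The other 11 stayed below 0 under it. The smallest difference was that of mt-Nd2 (-0.24, SE 0.16).

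**Figure D3:**
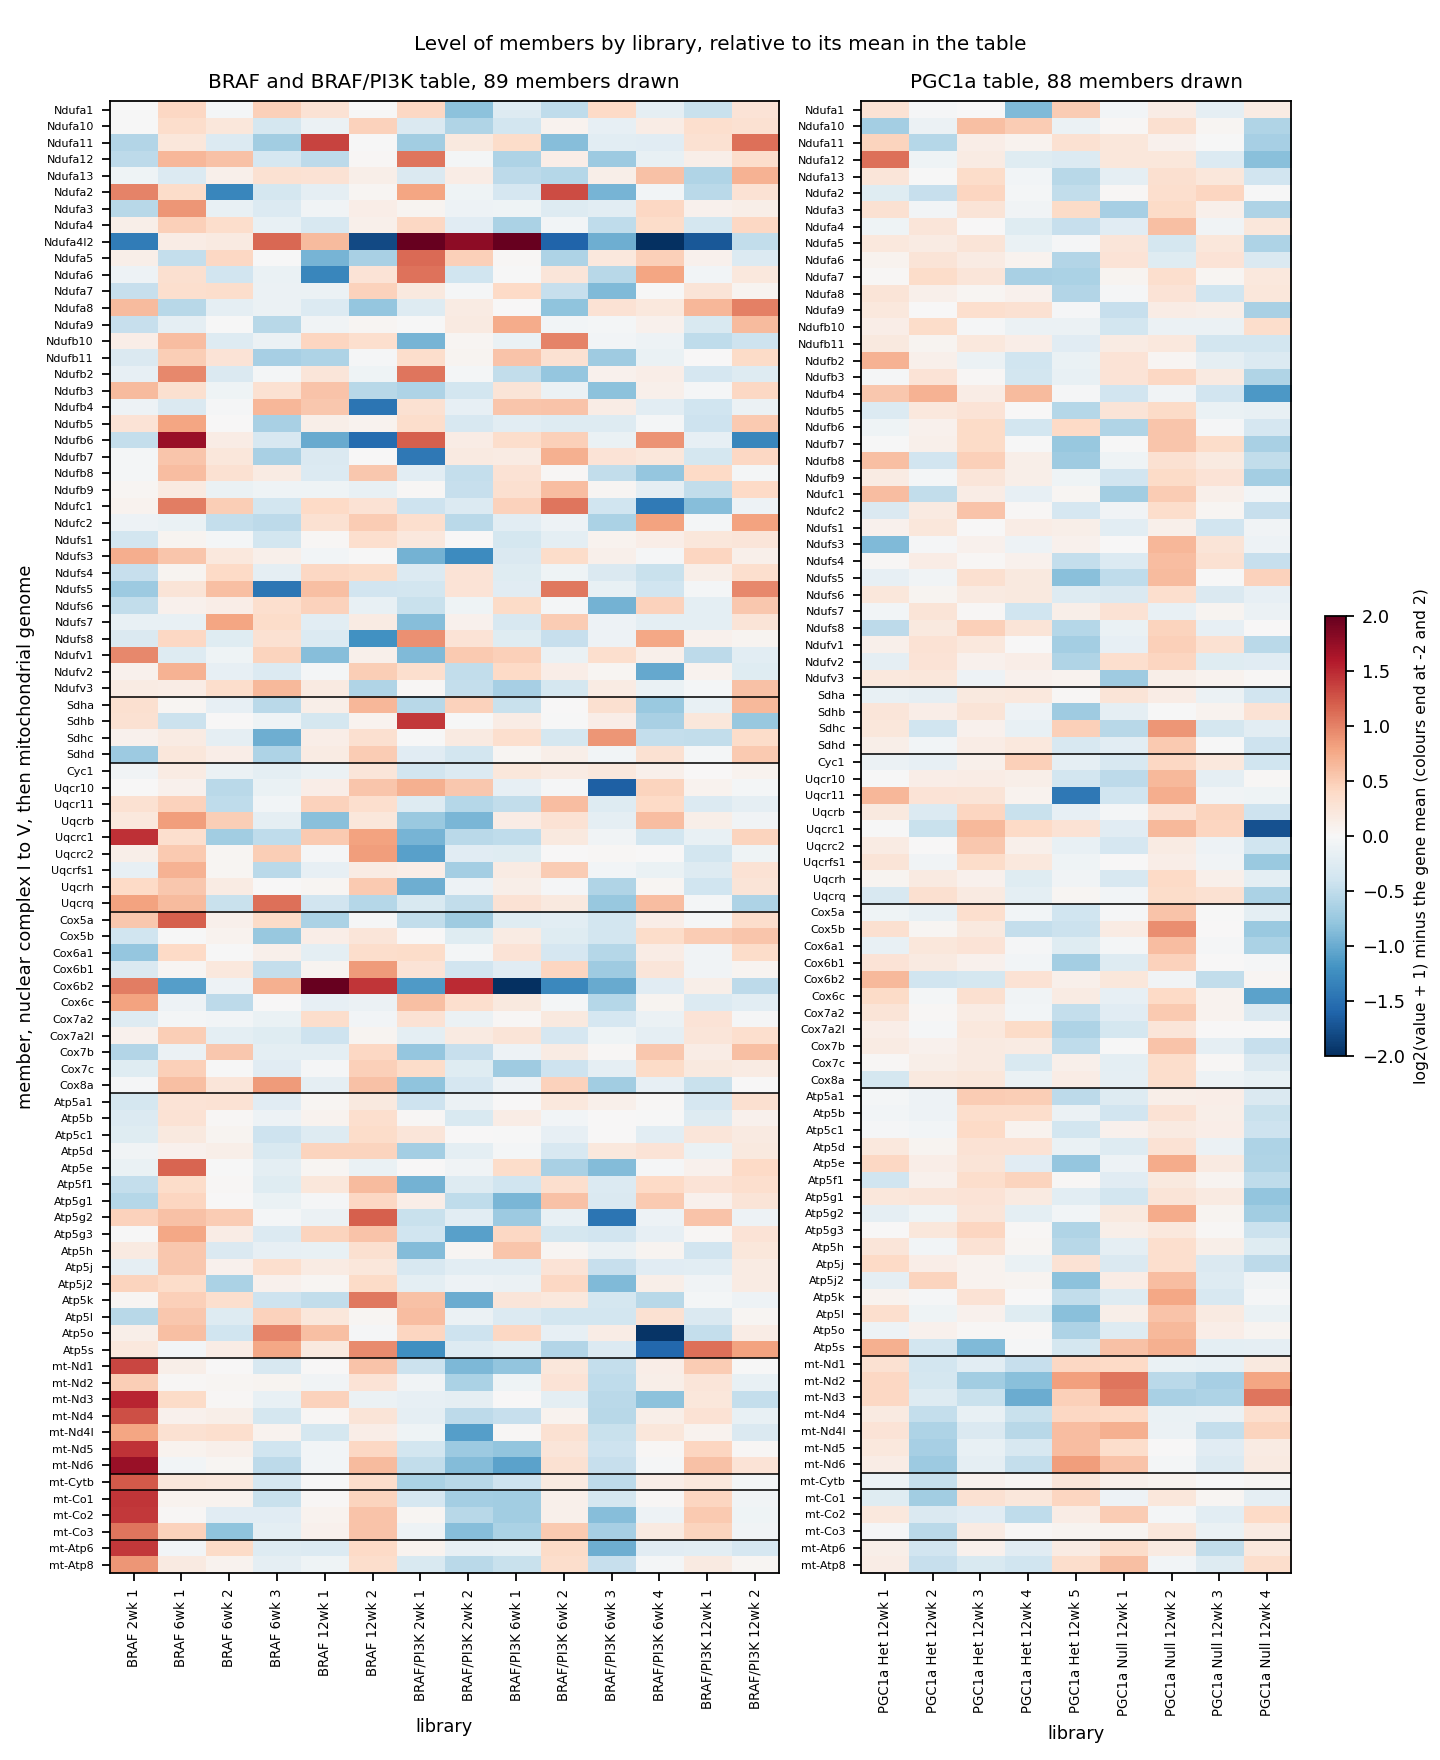
Level of each member drawn in each library as log2(normalized count + 1) minus the mean of that gene in the table, from blue (lower) to red (higher), with members ordered by complex for the nuclear genome and then for the mitochondrial genome. The column of the BRAFV600E library at 2 weeks is red for all 13 mitochondrial members, and the least even rows of the first table are those of Ndufa4l2 and Cox6b2.

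To see when after initiation these differences were present, the genotypes were compared at each week with a mean fitted for each genotype and week. At 2 weeks p.i. the 2 BRAFV600E/PI3KαH1047R libraries were lower than the 1 BRAFV600E library for all 13 mitochondrial members (49.3% of all genes tested were below 0), with a median log2 fold change of -1.67 (range -2.41 to -0.85). After quantile normalization, which limits how far genes of the top ranks can differ, 12 were lower and mt-Co1 was at 0.29. All 13 had an unadjusted p under 0.05, against 6.57% of all genes in this direction, and none passed adjustment in limma (0 of 90, 0.0171% of all genes). The change for mt-Co1, at 908310 in the BRAFV600E library and 267200 and 211730 in the others, was -1.93 (SE 0.38, limma adjusted p = 0.0855), and that for mt-Nd6 was -2.41 (SE 0.50, limma adjusted p = 0.0886). The weakest was mt-Nd2 (-0.85, limma adjusted p = 0.324). Leaving out the first BRAFV600E/PI3KαH1047R library at 6 weeks, which enters this contrast only through the shared estimate of the spread, brought 6 mitochondrial members under 0.05 (mt-Co1, mt-Cytb, mt-Nd1, mt-Nd4, mt-Nd5 and mt-Nd6, limma adjusted p 0.018 to 0.0365).

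The nuclear members at 2 weeks had a median of -0.10 with 43 of 77 below 0. This direction is not firm, since the median was 0.20 with labelled sex as a factor. By complex, 8 of 9 nuclear members of complex III were below 0 (median -0.78), against 18 of 37 for complex I (0.00), 1 of 4 for complex II (0.20), 6 of 11 for complex IV (-0.02) and 10 of 16 for complex V (-0.12). The 2 nuclear members that were lower at an unadjusted p under 0.05 were Uqcrc1 (940 against 180 and 236, log2 fold change -2.18, SE 0.52, limma adjusted p = 0.120) and the complex I core gene Ndufs3 (401 against 125 and 101, -1.82, limma adjusted p = 0.123). The 1 member higher at that level (6.93% of all genes) was Ndufa4l2, a paralog of Ndufa4 known as a target of hypoxia inducible factors, and 0 members were higher at that level without the first BRAFV600E/PI3KαH1047R library. The next highest were Ndufb6 (1.15, SE 0.88) and Ndufa12 (1.04, SE 0.64), at 0.63 and 0.49 without that library.

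Ndufa4l2 was at 3.17 in the BRAFV600E library and at 130 and 37.0 in the 2 with PI3KαH1047R, a log2 fold change of 4.08 (SE 1.79, limma adjusted p = 0.348). At 6 weeks it was at 11.2, 11.5 and 23.4 in BRAFV600E tumors and at 67.4, 2.64, 4.62 and 1.53 with PI3KαH1047R, and at 12 weeks at 16.2 and 2.15 against 2.41 and 6.82. The 3 libraries at 37.0 or above, all with PI3KαH1047R, were also the 3 with the highest endothelial marker sums of the table (217168, 155308 and 129374). Its partner Ndufa4 was at 318 to 554 in BRAFV600E and 255 to 527 in BRAFV600E/PI3KαH1047R libraries.

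All 2-week contrasts rest on a single BRAFV600E library, and with 2 against 1 the permutation of labels cannot pass a threshold. That library was labelled female and both BRAFV600E/PI3KαH1047R libraries male, so sex and genotype cannot be told apart at this week. The AT2 markers were lower here too, at a sum of 82642 and 175657 against 830916, with 11 of 12 lower at an unadjusted p under 0.05 in limma, and the endothelial markers were higher, at 155308 and 129374 against 13876, with 11 of 12. Fibroblast markers summed to 41751 and 70394 against 23827 (1 of 10 higher at that level) and macrophage markers to 11429 and 3976 against 1907 (3 of 11 higher). Striated muscle markers summed to 515 and 470 against 3231, with 2 of 7 lower, and Mb and Nppa were at 0 in all 3 libraries. The part of these transcripts in the mitochondrial difference was not tested.

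**Figure D4:**
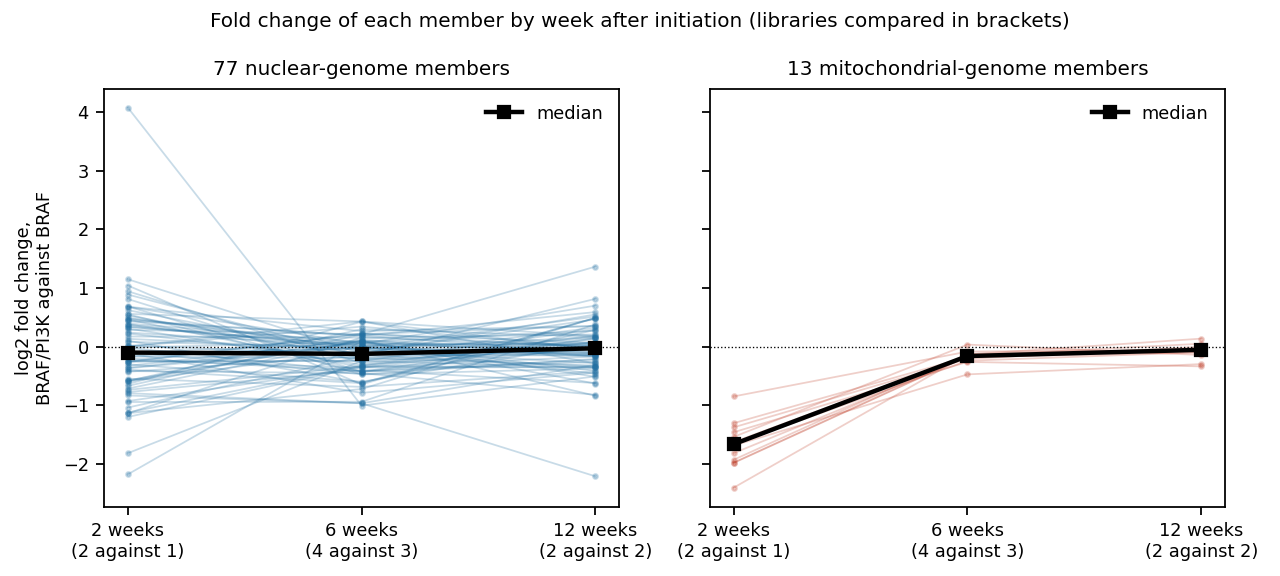
Log2 fold change of each member for BRAFV600E/PI3KαH1047R against BRAFV600E at 2, 6 and 12 weeks p.i., for 77 nuclear and 13 mitochondrial members, with the median as a black line. The mitochondrial median is -1.67 at 2 weeks, -0.16 at 6 weeks and -0.06 at 12 weeks, while the nuclear median lies between -0.13 and -0.03 (0.20 at 2 weeks with labelled sex as a factor).

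At 6 weeks, with 4 against 3 libraries, the medians were -0.13 for nuclear members (48 of 77 below 0) and -0.16 for mitochondrial members (12 of 13 below 0), against 49.5% of all genes below 0. With 1 library left out the nuclear median ran from -0.24 to 0.0089, the latter without the first BRAFV600E library of this week (38 of 77 below 0), and the mitochondrial median from -0.31 to -0.075. Without the first BRAFV600E/PI3KαH1047R library of this week, 8 of 13 mitochondrial members were below 0. By complex, 14 of 16 nuclear members of complex V were below 0 and 0 of 4 of complex II. Adjusted p-values under 0.05 in limma were absent among members (0.0228% of all genes), and 3 were lower at an unadjusted p under 0.05 (1.99% of all genes) with 0 higher (2.24%): Atp5g2 (-0.97), Atp5s (-0.94) and Cox5a (-0.73). Cox5a was at -0.41 without the first BRAFV600E library of this week. As low without passing that level were Ndufa4l2 (-1.01, SE 1.12) and Cox6b2 (-0.97, SE 0.73), and the highest were Sdhc (0.43, SE 0.39), Ndufa9 (0.43, SE 0.30) and Ndufa2 (0.42, SE 0.57). Ndufv3 (-0.63, SE 0.33) and Atp5j (-0.48, SE 0.23) had the next smallest p. With 1 library left out Ndufa4l2 ran from -2.06 to -0.47, Cox6b2 from -1.44 to -0.53, Sdhc from 0.10 to 0.68, Ndufa9 from 0.24 to 0.55 and Ndufa2 from -0.02 to 0.82, so this order is not firm. The count of 3 was 0 without either BRAFV600E/PI3KαH1047R library at 12 weeks, which enter only through the shared spread, or with labelled sex as a factor (1 with the labels of these 2 libraries exchanged). It was 1 without any 1 of 7 other libraries: the first or second BRAFV600E or the third BRAFV600E/PI3KαH1047R library at 6 weeks, either BRAFV600E library at 12 weeks and either BRAFV600E/PI3KαH1047R library at 2 weeks. The 2 genotypes did not overlap for Atp5g2, Atp5s and Uqcrc2 (-0.40), all lower, against 2.6% of all genes lower without overlap. The change of the PI3KαH1047R effect between these weeks, a contrast added after the data were seen, had a mitochondrial median of 1.48, with 10 of 13 mitochondrial members higher at an unadjusted p under 0.05 (4.28% of all genes). None of 90 members passed adjustment in limma for it (0% of all genes), and the lowest adjusted p was 0.343, that of mt-Co1 included (1.81, SE 0.45). The highest values were Uqcrc1 (2.28, SE 0.62), mt-Nd6 (2.27, SE 0.59) and mt-Nd5 (1.82, SE 0.49), with mt-Cytb at 1.64 (SE 0.42), and the lowest Ndufa4l2 (-5.09, SE 2.11), Ndufa12 (-1.69, SE 0.76) and Ndufb6 (-1.27, SE 1.04).

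At 12 weeks, with 2 against 2 libraries, the medians were -0.03 and -0.06, with 42 of 77 nuclear and 11 of 13 mitochondrial members below 0 (49.5% of all genes). The mitochondrial count was 4 after quantile normalization, 3 after scaling to an equal sum without the mitochondrial genes (which moved the median of all genes to 0.10), 2 without the second BRAFV600E library and 1 without the second BRAFV600E/PI3KαH1047R library, so no direction holds for these genes at 12 weeks. Limma called 0 members after adjustment (0.0114% of all genes), and 2 had an unadjusted p under 0.05 (3.76% of all genes). These were the complex I subunit Ndufa8, at 62.6 and 44.1 against 121 and 155 (1.36, SE 0.51), and Cox6b2, at 158 and 69.5 against 27.5 and 17.2 (-2.22, SE 0.96), both with a limma adjusted p of 1. The next furthest values, none with an unadjusted p under 0.05, were Ndufb10 (-0.84), Ndufc1 (-0.82), Ndufs8 (0.81) and Ndufa5 (0.70), and Uqcrc2 was at -0.62 (SE 0.37). With 1 library left out Ndufs8 ran from 0.35 to 1.28, without the second and the first BRAFV600E library, and Ndufc1 from -1.20 to -0.45, without the second and the first BRAFV600E/PI3KαH1047R library, and Uqcrc2 was at -0.19 without the second BRAFV600E library, so their place is not firm. This contrast rests wholly on the 2 libraries whose sex labels went against the Y-linked genes, so no value remains without them. The nuclear median was 0.13 without the first of them and -0.21 without the second, and 0.072 without the second BRAFV600E library. Without the second BRAFV600E/PI3KαH1047R library 0 members had an unadjusted p under 0.05. Ndufa8 was the only member at that level without the first BRAFV600E/PI3KαH1047R library and Cox6b2 the only one without the second BRAFV600E library, while without the first BRAFV600E library these were Ndufa8 and Uqcrc2. The change of the PI3KαH1047R effect between 6 and 12 weeks had medians of 0.09 and 0.12, with Cox5a (1.21) the 1 member at an unadjusted p under 0.05 (2.87% of all genes) and 0 after adjustment in limma (0% of all genes). The highest values were Atp5s (1.32, SE 0.70), Cox5a and Ndufa8 (1.16, SE 0.64), and the lowest Cox6b2 (-1.25, SE 1.21), Ndufb10 (-0.94, SE 0.67) and Uqcr11 (-0.73, SE 0.67), while Ndufa12 (1.13, SE 0.66) and Ndufv3 (1.11, SE 0.54) were next after the highest. Of these Cox6b2 was at -0.66 without the first BRAFV600E library at 12 weeks. Neither median held its direction: the mitochondrial one was -0.14 without the first BRAFV600E/PI3KαH1047R library and -0.092 without the first BRAFV600E library at 12 weeks, and the nuclear one was -0.056 without the first BRAFV600E library at 6 weeks, -0.036 without the first BRAFV600E library at 12 weeks and -0.028 without the second BRAFV600E/PI3KαH1047R library at 12 weeks. Cox5a kept its direction whichever of the 14 libraries was left out, but its unadjusted p was under 0.05 in 4 of these 14 fits.

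The weeks were also compared in a fit with a genotype term and a week effect shared by both genotypes. Such a fit cannot show a PI3KαH1047R effect that changes between weeks, which had a mitochondrial median of 1.48 between 2 and 6 weeks. In limma 0 of 90 members passed adjustment for either step (0.0513% of all genes between 2 and 6 weeks and 0% between 6 and 12 weeks). Between 2 and 6 weeks the nuclear median was 0.10 and the mitochondrial median -0.33, and 3 members had an unadjusted p under 0.05 (11.9% of all genes): the complex IV subunits Cox6c (-0.72, SE 0.23) and Cox7b (0.74, SE 0.25) and the stator subunit Atp5f1 (0.58, SE 0.24). Cox6c was at 725 in the BRAFV600E library and 635 and 523 in the BRAFV600E/PI3KαH1047R libraries at 2 weeks, and at 279 to 476 in the 7 libraries at 6 weeks. The weeks did not overlap for Cox6c, as for 1.61% of all genes lower at 6 weeks, or for Cox7b, at 274 to 340 at 2 weeks and 408 to 681 at 6 weeks, as for 1.49% of all genes higher. For the other 88 members they overlapped. Beside Cox7b the highest values were Uqcrb (0.75, SE 0.35) and Ndufb7 (0.66, SE 0.40), with Atp5a1 at 0.39 (SE 0.18), and the lowest were Ndufa4l2 (-1.39, SE 1.15), Cox6b2 (-1.30, SE 0.65) and Ndufa2 (-0.74, SE 0.50), although Ndufb7 was at 0.13 and Ndufa4l2 at -0.26 without the first BRAFV600E/PI3KαH1047R library at 2 weeks and Cox6b2 at -0.55 without the second. The count of members at an unadjusted p under 0.05 depended on the libraries: it was 9 without the second BRAFV600E/PI3KαH1047R library at 2 weeks, 6 without the third BRAFV600E library at 6 weeks, 5 without the BRAFV600E library at 2 weeks, the first BRAFV600E or the first BRAFV600E/PI3KαH1047R library at 12 weeks or the second BRAFV600E/PI3KαH1047R library at 6 weeks, and 14 without the 3 libraries richest in endothelial markers. Without the 2 BRAFV600E/PI3KαH1047R libraries at 12 weeks it was 4, and the medians were 0.08 and -0.35. The mitochondrial median was 0.30 without the BRAFV600E library at 2 weeks, so its direction rests on that library, and -1.38 without the 3 libraries richest in endothelial markers, 2 of them the other libraries at 2 weeks. Between 6 and 12 weeks the medians were 0.08 and 0.21, and 4 members had an unadjusted p under 0.05 (5.31% of all genes): Ndufb6 (-1.43), Cox6b2 (1.53), Atp5s (0.97) and Ndufa11 (0.93). The other values among the 3 lowest were Ndufa4l2 (-0.75, SE 1.05) and Uqcrq (-0.66, SE 0.39), and Sdha had the next smallest p (0.53, SE 0.26). The count of 4 was 7 without the BRAFV600E library at 2 weeks and 2 without the second BRAFV600E/PI3KαH1047R library at 12 weeks. The nuclear median was -0.042 without that second library, and without both BRAFV600E/PI3KαH1047R libraries at 12 weeks the medians were 0.04 and -0.04, with 8 of 13 mitochondrial members below 0 in place of 2, so that the direction of the mitochondrial members rests on those 2 libraries. Without them Atp5s was at 0.28 and Cox6b2 at 2.20.

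Ppargc1a, the gene deleted in the second comparison, was at 350 to 1088 in BRAFV600E and at 51.9 to 415 in BRAFV600E/PI3KαH1047R libraries, and 7 of 8 lay below every control. Its log2 fold change was -1.92 (SE 0.45, limma adjusted p = 0.225), and the two-sided exact permutation p for this gene was 0.0020. The paper picked this gene partly by its difference between these same genotypes, so the permutation p is not an independent test. Without the 2 BRAFV600E/PI3KαH1047R libraries at 12 weeks the log2 fold change was -1.94 (SE 0.44, limma adjusted p = 0.210). Of 8 transcriptional regulators of the chain 4 were below 0, among them Esrrg (-0.58). Of the partners through which the co-activator is known to reach these genes, Nrf1 was at 0.10 (SE 0.22) and Gabpa at 0.22 (SE 0.24). Esrra, another such partner, was at 0.27 with an SE of 1.02, its values spread widely within groups, and the sign of its difference was not the same at each week. It was at 201 in the BRAFV600E library at 2 weeks, 3.97, 15.5 and 55.5 at 6 weeks and 55.6 and 3.09 at 12 weeks, against 1.68 and 12.5, then 5.72, 75.5, 63.5 and 55.3, then 146 and 56.7 with PI3KαH1047R. The log2 fold change of Esrra was -5.07 at 2 weeks (SE 1.88, limma adjusted p = 0.266), 1.15 at 6 weeks (SE 1.17) and 2.60 at 12 weeks (SE 1.53), and the pooled value was -0.28 without the 2 BRAFV600E/PI3KαH1047R libraries at 12 weeks. Of 46 assembly factors 23 were below 0 and 1, the complex III factor Uqcc1 (-0.51), was lower at an unadjusted p under 0.05. Of 18 genes that transcribe, maintain or translate the mitochondrial genome 9 were below 0, with the mitochondrial RNA polymerase Polrmt higher (1.37, limma adjusted p = 0.511) and the packaging factor Tfam at -0.33. Of 7 subunits and partners that the symbol pattern did not reach 3 were below 0, among them Cox4i1 (-0.20), while Ndufab1 was at 0.10.

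The second comparison asked whether loss of PGC1α lowered the chain in BRAFV600E tumors at 12 weeks. In BRAFV600E/PGC1αNull tumors the nuclear members had a median log2 fold change of -0.03 against BRAFV600E/PGC1αHet tumors, with 44 of 76 below 0, and the mitochondrial members a median of 0.19 with 1 of 13 below 0 (48.9% of all 17424 genes were below 0). In limma 0 of 89 members had an adjusted p under 0.05 (0% of all genes), and 0 had an unadjusted p under 0.05 (3.83% of all genes). Without the second PGC1αNull library 2 had one, Atp5d (-0.47) and Atp5j (-0.52), and 1 did with sex as a factor or after quantile normalization. With 1 library left out the mitochondrial median ran from 0.062, without the second PGC1αHet library, to 0.34, without the fifth, with at most 3 of 13 members below 0. The nuclear median turned to 0.038 without the third PGC1αHet library, 0.018 without the first PGC1αNull library and 0.081 without the fourth. Across nuclear members the values ran from -0.89 to 0.41. The medians by complex were -0.02 for complex I (19 of 36 below 0), -0.05 for complex II (3 of 4), -0.02 for complex III (7 of 9), -0.04 for complex IV (7 of 11) and 0.01 for complex V (8 of 16). Ppargc1a itself was at 75.8, 170, 155, 200 and 561 in PGC1αHet and at 72.7, 38.0, 51.6 and 124 in PGC1αNull libraries (-1.51, SE 0.50, limma adjusted p = 0.978), so that the groups overlapped, and a count for the whole gene does not check which exons were deleted.

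The member with the lowest log2 fold change was Ndufb4, an accessory subunit of the membrane arm of complex I whose promoter is shown above. It was at 29.3, 32.9, 22.3, 31.4 and 19.7 in PGC1αHet and at 15, 18.9, 15.1 and 8.50 in PGC1αNull libraries. Every PGC1αNull library lay below every PGC1αHet library, as for 0.459% of all genes, and it was the 1 member of 89 without overlap. The log2 fold change was -0.89 (SE 0.46, 95% interval -1.88 to 0.09, limma adjusted p = 0.998). Ndufs1, the iron-sulfur subunit of complex I, was at 586, 646, 555, 614 and 598 against 480, 592, 424 and 530 (-0.25, SE 0.19, exact permutation p = 0.0476, unadjusted for 89 members).

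For the members of the other complexes the groups overlapped. Uqcrc2 was at 412 to 664 against 347 to 512 (-0.30, 95% interval -0.77 to 0.17). Uqcrc1 was at 167 to 360 against 67.7 to 361 (-0.39, SE 0.43), and its value turned to 0.11 without the fourth PGC1αNull library, the lowest of the 9. Atp5b was at 8612, 8297, 11430, 11428 and 8218 against 6819, 10901, 9700 and 6571 (-0.19, 95% interval -0.72 to 0.33). The 3 members of the pooled PI3KαH1047R comparison whose promoters are shown above, Atp5g2 (0.13, SE 0.30), Cox8a (-0.04, SE 0.23) and Uqcrh (0.00, SE 0.22), were near 0 here, and the 2 comparisons were not tested against each other. The highest nuclear values were Atp5s (0.41, SE 0.39) and Ndufs3 (0.37, SE 0.28), which fell to 0.23 without the third and to 0.19 without the first PGC1αHet library. The mitochondrial mt-Nd3 (0.36, SE 0.44) was next, at 0.07 without the fourth PGC1αNull library. Beside Ndufb4 and Uqcrc1 the lowest was Ndufa9 (-0.38, SE 0.23), at -0.24 without that library. Complex II stayed close to 0, with Sdha at -0.05 (95% interval -0.48 to 0.39).

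Mitochondrial members took 1.17% to 2.14% of the counts in PGC1αHet and 1.52% to 1.68% in PGC1αNull libraries, and the nuclear members 0.333% to 0.443% and 0.271% to 0.469%. For mt-Co1 the values were 48908, 35746, 71090, 67889 and 77868 against 53649, 67658, 59343 and 51033, a log2 fold change of -0.01 (95% interval -0.73 to 0.71). The 4 PGC1αNull libraries lay inside the range of the controls. The most variable member of this table was mt-Nd2 (SD of log2 values 0.76), at 5034, 2980, 2348, 2116 and 6723 against 7972, 2601, 2400 and 6589. Its neighbor in rank, mt-Nd3, was at 221, 140, 122, 83.5 and 231 against 336, 106, 108 and 349. Both were high in libraries numbered 1 and 5 of PGC1αHet and 1 and 4 of PGC1αNull, within either genotype.

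The extremes of the nuclear members were gathered in few libraries. Of 76, 39 were highest in the second PGC1αNull library, 26 lowest in the fourth PGC1αNull library and 29 lowest in the fifth PGC1αHet library. Without the fourth PGC1αNull library 28 of 76 were below 0, and without the second PGC1αNull library 60. The endothelial markers summed to 656 to 1342 in PGC1αHet and to 1917 to 3195 in PGC1αNull libraries, with 11 of 12 higher at an unadjusted p under 0.05 in limma. The macrophage, fibroblast, lymphocyte and airway markers also reached higher sums in PGC1αNull libraries, while AT2 markers summed to 564976 to 709193 and 444332 to 689597. Whether these other transcripts had a part in the values of the chain genes was not tested. Of 45 assembly factors 25 were below 0, and of 18 genes for expression of the mitochondrial genome 10, with 0 of either list at an unadjusted p under 0.05 in limma.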

How the data were processed

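RNA from sorted tdTomato+ tumor cells was sequenced in 23 libraries as 50-base single reads. Per the labels and methods, the authors quantified reads with Salmon and normalized with DESeq2 in Galaxy on GRCm38, with FastQC for read quality (versions and strand setting not given in the sources used here). The signal deposited by the authors is the DESeq2-normalized Salmon estimate of each gene, in 2 tables normalized separately, so raw depth is unknown and precision is the spread between libraries. The deposited comparison tables hold the authors' base mean, log2 fold change, standard error, Wald statistic and p-values, and were not used.

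Groups came from the labels. The labels do not tie libraries to mice, so p-values measure the spread between these libraries. Values were analyzed as log2(normalized count + 1), so that changes of low genes are understated, for genes with a mean of at least 10, with limma 3.58.1 (trend, two-sided) in R 4.3.3 and Benjamini-Hochberg adjustment over all genes tested at 0.05. Pooled weeks had a genotype term alone. The steps between weeks had a genotype term and a week effect shared by both genotypes, and a mean per genotype and week was fitted otherwise. Single members were tested with two-sided exact permutation of libraries (SciPy 1.17.1). Python 3.11.15, numpy 2.4.6, pandas 2.3.3 and matplotlib 3.10.9 were used. The fit was tested on simulated data. Lengths per kb are median coding transcript lengths of GENCODE vM21, and shared sequence was counted in 31-base stretches of its transcripts. No protein sequences were used here. Values of 1 nuclear member are not reported here, and it is left out of the map of levels by library.

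Members and lists were chosen with earlier results of these data known. Named are the mitochondrial members, a panel of core nuclear members, isoforms, and in each comparison the 3 highest, the 3 lowest and the 5 with the smallest p. Ndufa9, Ndufa12 and others named for 1 library were chosen after their values were seen. Alternatives were pseudocount 4, a mean over 40 or no filter, 2 other scalings, a sex term, a week term, replicate block, each library left out, and those added after the data were seen: sums with nuclear copies, leaving out the 3 libraries richest in endothelial markers, a sex term with 2 labels exchanged, and the contrast between 2 and 6 weeks.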

Additional observations from a re-analysis of the deposited data

Results flagged for a closer look

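Within groups of 4 to 10 libraries, a library was singled out where its gap to the nearest other exceeded the critical share of the group's range in Dixon's test. This held for 24 of 173 groups tested. The rate of about 1 in 20 by chance does not apply to this count. Groups shared libraries, some pooled weeks, and some members were chosen after their values were seen. The BRAFV600E library at 2 weeks was the highest of the 6 BRAFV600E libraries for the ratio of mitochondrial to nuclear counts (42.5, next 16.2), mt-Co1 (908310, next 457926), mt-Cytb (329648, next 181127), mt-Nd3 (482, next 231), mt-Nd4 (325295, next 159212), mt-Nd5 (227603, next 111991) and mt-Nd6 (22459, next 10462). It was also highest for Cox6c (725, next 420) and Ndufa8 (118, next 70.5).

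Among the 8 BRAFV600E/PI3KαH1047R libraries the first at 2 weeks was high for Sdhb (411, next 181) and Ndufa12 (291, next 176) and low for Uqcrc2 (434, next 718). The second at 2 weeks was high for Cox6b2 (72.5, next 27.5). At 6 weeks the first was high for Ndufa4l2 (67.4, next 4.62) and Ndufa9 (1060, next 670) and low for Uqcrc2 (779, next 924), all against the other 3 of that week. The second at 6 weeks was high for Ndufb10 (231, next 120 over all weeks and 112 at 6 weeks) and Ndufb7 (145, next 106 among the 4 at 6 weeks), and the third had the lowest mean log2 level of nuclear members of these 4 (7.69, next 7.91). At 12 weeks the second was high for Ndufa11 (73.4, next 43.4).

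Ndufa11 was also high in the first BRAFV600E library at 12 weeks (86.7, next 39.4), and Ndufb6 in the first at 6 weeks (212, next 69.7). In the PGC1α table Ndufs3 was low in the first PGC1αHet library (97.3, next 168).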

How the results depend on the processing

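Across up to 26 alternatives per comparison limma called 0 members except at 2 weeks, where leaving out 1 library at a time gave 0 to 6. With labelled sex as a factor the nuclear median was 0.20 at 2 weeks and -0.31 for the change between 2 and 6 weeks, and with the sex labels of the 2 BRAFV600E/PI3KαH1047R libraries at 12 weeks exchanged -0.0055 and -0.14. Leaving out 1 library moved the mitochondrial median of 6 against 2 weeks from -0.67 to 0.30 (-1.38 without the 3 libraries richest in endothelial markers), and the nuclear median from -0.21 to 0.13 at 12 weeks, from -0.24 to 0.0089 at 6 weeks and from -0.056 to 0.25 for the change between 6 and 12 weeks (mitochondrial -0.14 to 0.32). Directions turned as follows. Quantile normalization, which by construction limits how far genes of the top ranks can differ, put mt-Co1 at 0.18 pooled, 0.29 at 2 weeks and -0.13 for the change between 2 and 6 weeks, and Sdha in the PGC1α comparison at 0.0062. Sex as a factor put Sdha at 0.033 pooled and mt-Co1 in the PGC1α comparison at 0.031. Ndufv1 was at 0.015 pooled without the 2 BRAFV600E/PI3KαH1047R libraries at 12 weeks, and without the 3 endothelial-rich libraries Sdhb was at -0.13 pooled and Ndufa4l2 at 1.59 between 2 and 6 weeks. With 1 library left out, pooled values ran from -0.28 to 0.088 for Ndufv1, -0.050 to 0.20 for Sdhd, -0.050 to 0.21 for Sdhc and -0.049 to 0.26 for Sdhb, Ndufa2 at 6 weeks from -0.016 to 0.82, and in the PGC1α comparison mt-Co1 from -0.19 to 0.10, Sdha from -0.14 to 0.070 and Uqcrc1 from -0.69 to 0.11. Scaling to an equal sum without mitochondrial genes left 36 of 90 members below 0 at 12 weeks (53 as reported). That scaling also moved the median of all genes upward, as given for 12 weeks above, and the part of this shift in the count was not tested. Same-numbered libraries did not deviate together (correlations -0.47 to 0.21). With replicate block the pooled medians were -0.16 (nuclear) and -0.49 (mitochondrial), 5 members were lower at an unadjusted p under 0.05 in place of 8, 7 members in place of 3 were at that level between 2 and 6 weeks and 1 in place of 3 at 6 weeks, the nuclear median between 6 and 12 weeks was -0.0099, mt-Co1 in the PGC1α comparison was at 0.10, and 0 members were called in any comparison, as with the 12-week numbers crossed.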
